A study of Mus musculus with 18 samples.

Results

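The genes of the blood vessels around the lens were examined as a set of 9 members out of the 40800 genes in the count table, chosen by symbol: the junction genes *Pecam1* and *Cdh5*, the receptors *Kdr*, *Flt1*, *Tek* and *Tie1*, the mural cell receptor *Pdgfrb*, and the ligands *Vegfa* and *Angpt2*. RNA-seq was performed on whole mouse lenses of C57BL/6J background in 18 libraries, 3 for each of 6 groups. Lenses of 2-day-old mice came from the knock-in line that carries the R49C mutation of αA-crystallin (groups *Cryaa*-WT, then *Cryaa*-R49C-het, then *Cryaa*-R49C-homo), and lenses of 14-day-old mice from the line that carries the R120G mutation of αB-crystallin (groups *Cryab*-WT, then *Cryab*-R120G-het, then *Cryab*-R120G-homo). Both mutations are at the endogenous gene, so that the mutant protein was present wherever the crystallin is made, and each library pooled several lenses. Age and line changed together, so a difference between day 2 and day 14 cannot be told apart from a difference between the lines, and the p-values measure the spread between pools.

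The lens has no vessels of its own. Before and shortly after birth it is fed by the hyaloid artery and the tunica vasculosa lentis, a net of capillaries on its surface, which in the mouse regresses over the first weeks of life with help from macrophages. Endothelial cells line these vessels and carry *Kdr* and *Flt1*, the receptors for vascular endothelial growth factor (VEGF, made from *Vegfa*), and *Tek* and *Tie1*, of which *Tek* binds the angiopoietins. *Angpt2* is known as an antagonist of *Tek* in many settings and as a gene of vessel remodelling, and *Pdgfrb* marks the pericytes that wrap capillaries. In whole lenses, fewer vessel cells and less RNA per vessel cell cannot be told apart.

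The members lie at separate loci in the GRCm38 build. *Pecam1* is on chromosome 11 (106654217 to 106750628, minus strand), *Cdh5* on chromosome 8 (104101625 to 104144511, plus strand) and *Angpt2* on chromosome 8 (18690263 to 18741562, minus strand). *Kdr* lies on chromosome 5 from 75932827 to 75978458 and *Flt1* on the same chromosome from 147561604 to 147726011, both on the minus strand. *Tek* lies on chromosome 4 from 94739289 to 94874976 on the plus strand and *Tie1* on chromosome 4 from 118471191 to 118490061 on the minus strand. *Vegfa* is on chromosome 17 (46016993 to 46032369, minus strand). The RefSeq table of GRCm38.p6 held a window from 250 bases before to 50 bases after the transcription start for 5 members, *Kdr*, *Flt1*, *Tek*, *Tie1* and *Vegfa*. The windows of the 4 receptors are shown because these genes fell together between the ages below. Capitals mark the core of the motif bound by ETS factors, a family that includes the endothelial regulators *Erg* and *Fli1*, as GGAA or, on the other strand, TTCC. All 4 are written 5′ to 3′ along the gene.

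*Kdr*, chr5:75978406-75978705, minus strand: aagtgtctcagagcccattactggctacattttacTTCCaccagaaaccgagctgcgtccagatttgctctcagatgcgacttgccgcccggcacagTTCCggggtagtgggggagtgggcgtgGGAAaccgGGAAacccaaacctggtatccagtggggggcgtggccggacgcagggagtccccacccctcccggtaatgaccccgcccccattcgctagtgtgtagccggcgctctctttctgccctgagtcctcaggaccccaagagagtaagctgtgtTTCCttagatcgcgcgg

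*Flt1*, chr5:147725962-147726261, minus strand: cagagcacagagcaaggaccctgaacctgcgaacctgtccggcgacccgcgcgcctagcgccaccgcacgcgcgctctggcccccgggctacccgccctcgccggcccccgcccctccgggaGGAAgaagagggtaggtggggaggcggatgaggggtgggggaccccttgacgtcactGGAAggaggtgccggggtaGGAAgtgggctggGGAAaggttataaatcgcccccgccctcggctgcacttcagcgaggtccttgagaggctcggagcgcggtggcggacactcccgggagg

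*Tek*, chr4:94739039-94739338, plus strand: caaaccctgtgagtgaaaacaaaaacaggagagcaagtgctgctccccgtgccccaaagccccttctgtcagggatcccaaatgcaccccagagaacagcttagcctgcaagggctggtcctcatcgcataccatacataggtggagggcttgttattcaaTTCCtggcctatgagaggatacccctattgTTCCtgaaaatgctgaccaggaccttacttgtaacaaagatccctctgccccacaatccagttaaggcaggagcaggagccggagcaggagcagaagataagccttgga

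*Tie1*, chr4:118489800-118490099, minus strand: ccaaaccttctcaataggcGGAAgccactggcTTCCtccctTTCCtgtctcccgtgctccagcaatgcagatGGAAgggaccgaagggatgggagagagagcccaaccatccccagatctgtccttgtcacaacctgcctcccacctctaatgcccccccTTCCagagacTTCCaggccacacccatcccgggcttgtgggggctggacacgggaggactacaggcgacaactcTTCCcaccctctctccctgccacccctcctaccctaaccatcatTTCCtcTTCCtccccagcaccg

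The core was found 5 times in the window of *Kdr*, 4 times in that of *Flt1*, 2 times in that of *Tek* and 9 times in that of *Tie1*. Windows of *Vegfa*, which did not pass between WT ages, are not shown and held the core 6 and 3 times. The core is a common string: 95.9% of the 27025 windows in the table held it at least 1 time, the median was 3, and 46.3% held 4 or more. The core of the motif for hypoxia-inducible factors (ACGTG or GCGTG, both strands) was found 2 times in the window of *Kdr* and 1 time in that of *Flt1*, against 43.8% of all windows with a match, and did not occur in these windows of *Tek* and *Tie1*. These matches are a description of letters and not of binding.

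Libraries held 14272174 to 29639719 counts. Values are CPM, the count of a gene scaled by library size, after TMM scaling, a factor per library that sets the bulk of genes equal between libraries. The factors were 1.20 to 2.27 at day 2 and 0.488 to 0.774 at day 14, where crystallin transcripts fill more of the library. All tests are edgeR quasi-likelihood tests in 1 model of the 18 libraries, with p-values adjusted by the Benjamini-Hochberg method over the 13938 genes tested and a threshold of 0.05. *Cryaa* averaged 91470 CPM ± 18680 (SD, n = 3) in *Cryaa*-WT and 54160 CPM ± 33720 (SD, n = 3) in *Cryaa*-R49C-homo, and *Cryab* averaged 41090 CPM ± 7152 (SD, n = 3) in *Cryab*-WT and 32870 CPM ± 2700 (SD, n = 3) in *Cryab*-R120G-homo. A point mutation leaves the transcript in place, so these levels do not check the labels. The lens origin showed in the fibre marker list, which summed to 2378 to 60480 CPM, although *Lim2* of that list and *Pdpn* of the lens epithelium list had 0 counts in every library. Endothelial RNA was present in the form of 30 other endothelial genes, which summed to 61.6 to 209.5 CPM per library at day 2 and 15.2 to 31.8 CPM at day 14.

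All 9 members were rare transcripts. In *Cryaa*-WT lenses at day 2, the level per kilobase of gene length was highest for *Angpt2* with 1.45 CPM per kb ± 0.483 (SD, n = 3) and *Kdr* with 1.43 ± 0.642, followed by *Vegfa* with 1.16 ± 0.302. The junction gene *Cdh5* stood at 0.761 CPM per kb ± 0.0256, *Tek* at 0.622 ± 0.0565, *Flt1* at 0.559 ± 0.055 and *Pdgfrb* at 0.495 ± 0.131. *Pecam1* stood at 0.359 CPM per kb ± 0.108 and *Tie1* was lowest with 0.24 ± 0.065. Neighbours in this order lay within their SDs of each other from *Angpt2* to *Vegfa* and from *Tek* to *Tie1*, while *Vegfa* stood above *Cdh5*, and *Cdh5* above *Tek*, by more than the sum of their SDs. In *Cryab*-WT lenses at day 14 the order differed: *Angpt2* remained highest with 1.76 CPM per kb ± 0.36 (SD, n = 3), *Vegfa* followed with 0.949 ± 0.413 and *Pdgfrb* with 0.78 ± 0.366. *Pecam1* had 0.311 ± 0.435, most of it from a single library. The endothelial receptors and *Cdh5* came last, with *Cdh5* at 0.0777 CPM per kb ± 0.0289, *Tek* at 0.215 CPM per kb ± 0.0616, *Kdr* at 0.131 ± 0.189, *Flt1* at 0.0758 ± 0.0515 and *Tie1* at 0.0723 ± 0.079.

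**Figure D1:**
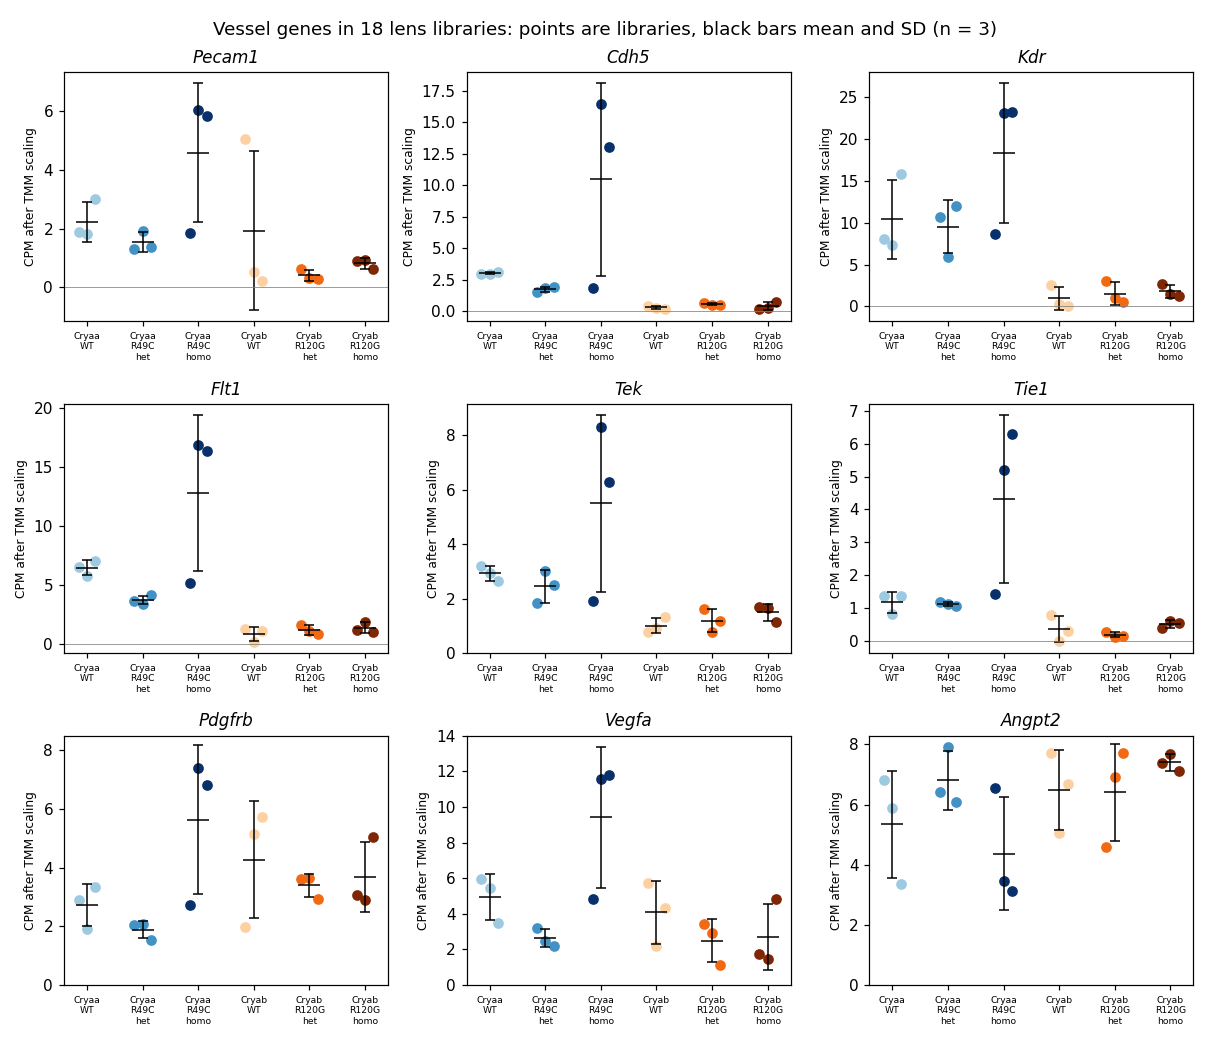
Level of the 9 vessel genes in each of the 18 libraries, in CPM after TMM scaling on a linear axis, by group; points are libraries and black bars the mean and SD of 3 libraries. *Cdh5*, *Kdr*, *Flt1*, *Tek* and *Tie1* sit lower in all 9 libraries of day 14 than in all 9 of day 2, and replicates 2 and 3 of *Cryaa*-R49C-homo stand above replicate 1 in 8 of the 9 panels, *Angpt2* being the exception.

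The first comparison asked how the members differed between WT lenses of the 2 ages. The endothelial receptors and *Cdh5* were lower at day 14, whereas *Pecam1*, *Pdgfrb*, *Vegfa* and *Angpt2* did not pass the test. Of the 9 members, 5 fell and none rose, against 11.5% of all genes tested that fell. The same 5 members were lower in all 3 *Cryab*-WT libraries than in all 3 *Cryaa*-WT libraries, which was so for 22.9% of all genes tested. The median log2 fold change was -1.51 over the members and -0.07 over all genes. Counts at day 14 were small, and *Cdh5* and *Tie1* entered the test through their day 2 libraries, since no library of day 14 passed the count minimum for them. They had to be higher at day 2, and of the other 7 members 3 fell.

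Among the VEGF receptors, *Kdr*, the main signalling receptor, measured 8.09, 7.29 and 15.8 CPM in the *Cryaa*-WT libraries and 2.53, 0.333 and 0 CPM in the *Cryab*-WT libraries. The lowest day 2 value was above the highest day 14 value, and the count of 0 in *Cryab*-WT replicate 3 allows up to 3 counts, or 0.223 CPM. The fitted log2 fold change was -3.66 ± 0.887 (SE; adjusted p = 0.00959), and -5.86 without *Cryab*-WT replicate 1. *Flt1*, which binds VEGF tightly and also exists as a soluble decoy, measured 6.56, 5.80 and 7.07 CPM at day 2 and 1.32, 0.2 and 1.11 CPM at day 14. The groups were far apart compared with their spread, and the log2 fold change was -2.96 ± 0.477 (SE; adjusted p = 0.000155).

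Of the Tie receptors, *Tek* measured 3.19, 2.94 and 2.66 CPM in *Cryaa*-WT and 0.771, 0.933 and 1.33 CPM in *Cryab*-WT. It fell by 1.51 on the log2 scale (SE 0.434, adjusted p = 0.0151), the smallest of the 5 changes that passed. *Tie1*, an orphan partner of *Tek*, measured 1.36, 0.81 and 1.37 CPM at day 2 and 0.771, 0 and 0.297 CPM at day 14. Its highest day 14 library nearly reached its lowest day 2 library, and the log2 fold change was -1.91 ± 0.669 (SE; adjusted p = 0.0431). The count of 0 in *Cryab*-WT replicate 2 allows up to 0.2 CPM. The call for *Tie1* was lost without *Cryaa*-WT replicate 1 (log2 fold change -1.79) or 3 (-1.79), and without *Cryab*-WT replicate 2 (-1.22) or 3 (-1.88), and its value was -3.01 without *Cryab*-WT replicate 1. The call for *Tek* was lost without *Cryab*-WT replicate 2 (-1.43). With only the 6 WT libraries in the fit, 3 members passed, against 12.8% of all genes that fell, and *Kdr* and *Tie1* did not.

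*Cdh5*, the cadherin of endothelial junctions, measured 2.98, 2.97 and 3.15 CPM at day 2 and 0.44, 0.267 and 0.222 CPM at day 14. The day 14 values rest on 3 or 4 counts per library, and the log2 fold change was -3.33 ± 0.688 (SE; adjusted p = 0.00178). *Pecam1*, the other junction gene, measured 1.87, 1.82 and 3.01 CPM at day 2 and 5.06, 0.533 and 0.222 CPM at day 14. A single library, *Cryab*-WT replicate 1, carried 46 counts of *Pecam1* where the other two carried 8 and 3, and the log2 fold change was -0.33 ± 0.715 (SE; adjusted p = 0.787). Without that library *Pecam1* fell by 2.53 on the log2 scale, past the threshold, and 7 members passed in all (21.8% of all genes), the other added gene being *Pdgfrb* with a log2 fold change of 0.995. *Cryab*-WT replicate 1 did not carry more of the other endothelial genes (16.5 CPM in sum, against 15.2 and 19.2 CPM), but more of the photoreceptor markers (818.9 CPM against 22.3 and 84.8 CPM), of the erythroid markers (145.7 CPM against 15.6 and 24.3 CPM), of the inner retina and glia markers (31.15 CPM against 7.20 and 8.46 CPM) and of the macrophage markers (4.73 CPM against 1.47 and 1.48 CPM). The part of these in the *Pecam1* value was not tested.

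The mural receptor and the ligands did not follow. *Pdgfrb*, on chromosome 18 from 61045150 to 61085061 on the plus strand, measured 2.90, 1.92 and 3.33 CPM in *Cryaa*-WT and 1.98, 5.13 and 5.71 CPM in *Cryab*-WT, a log2 fold change of 0.68 ± 0.37 (SE; adjusted p = 0.195). *Vegfa* measured 5.96, 5.43 and 3.50 CPM at day 2 and 5.72, 2.2 and 4.30 CPM at day 14, with a log2 fold change of -0.31 ± 0.458 (SE; adjusted p = 0.672). *Angpt2* measured 6.81, 5.87 and 3.36 CPM at day 2 and 7.71, 5.07 and 6.67 CPM at day 14, with a log2 fold change of 0.27 ± 0.295 (SE; adjusted p = 0.544). The groups overlapped for all 3. With library size in place of TMM the median of all genes moved to -1.61, and 82.0% of all genes and all 9 members were called lower. The log2 fold changes then became -0.93 for *Pdgfrb* and -1.21 for *Angpt2*, which lie above that median as they do under TMM.

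As the mean of the 3 genotypes, 9 libraries against 9, the age comparison gave 7 members lower and none higher, against 26.5% of all genes that fell. *Kdr* ranged from 5.94 to 23.1 CPM at day 2 (median 10.6) and from 0 to 3.06 CPM at day 14 (median 1.22). *Flt1* ranged from 3.44 to 16.9 CPM (median 5.80) and from 0.2 to 1.92 CPM (median 1.11). *Cdh5* ranged from 1.5 to 16.5 CPM (median 2.97) and from 0.196 to 0.764 CPM (median 0.44). For these genes, and for *Tek* and *Tie1*, no library of day 14 reached the lowest library of day 2, which was so for 5.2% of all genes in this direction.

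*Kdr* fell by 3.23 on the log2 scale (SE 0.477, adjusted p = 8.66e-05), *Flt1* by 2.59 (SE 0.261, adjusted p = 6.99e-08) and *Tek* by 1.47 (SE 0.242, adjusted p = 3.34e-05). *Cdh5* with a log2 fold change of -3.24 ± 0.37 (SE; adjusted p = 8.18e-07) and *Tie1* with -2.54 ± 0.375 (adjusted p = 9.59e-06) passed the count minimum in all 9 day 2 libraries and in 0 of day 14, so they could enter the test only as genes higher at day 2. *Pecam1* fell by 1.57 (SE 0.444, adjusted p = 0.00814) with overlapping ranges. *Vegfa* fell by 0.74 (SE 0.268, adjusted p = 0.0285), and this call was lost in 8 of the 18 fits that left out a single library: *Cryaa*-WT replicate 1, *Cryaa*-R49C-het replicate 1, *Cryaa*-R49C-homo replicates 2 and 3, *Cryab*-WT replicate 2, *Cryab*-R120G-het replicate 3 and *Cryab*-R120G-homo replicates 1 and 2, with values between -0.69 and -0.62. *Pdgfrb* (0.30 ± 0.213, adjusted p = 0.245) and *Angpt2* (0.31 ± 0.169, adjusted p = 0.128) did not pass. *Angpt2* passed at 0.45 when *Cryaa*-R49C-homo replicate 1 was left out.

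**Figure D2:**
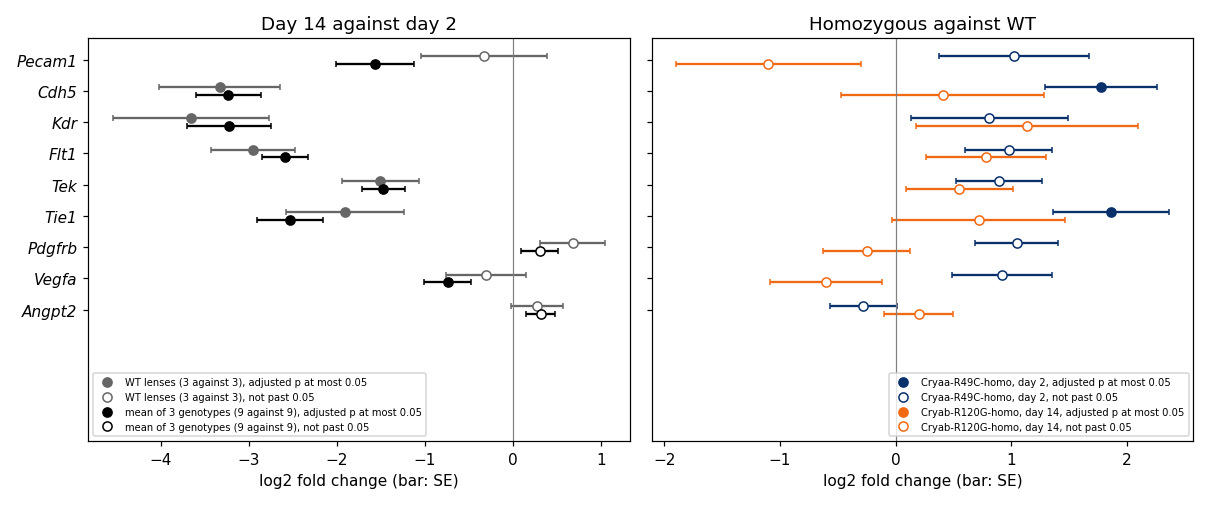
Log2 fold change of each vessel gene with its SE, left for day 14 against day 2 (grey, WT lenses; black, mean of the 3 genotypes) and right for homozygous against WT lenses (blue, *Cryaa*-R49C at day 2; orange, *Cryab*-R120G at day 14); filled points passed an adjusted p of 0.05. The 4 receptors and *Cdh5* lie left of -1 on the left, *Pdgfrb* and *Angpt2* lie right of 0 (left of it with library size in place of TMM), and on the right only *Cdh5* and *Tie1* in *Cryaa*-R49C-homo are filled.

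A ratio of counts inside a library does not depend on the scaling. Relative to the summed counts of the 30 other endothelial genes, *Angpt2* ranged from 0.0161 to 0.104 at day 2 and from 0.175 to 0.467 at day 14, with no overlap over 9 and 9 libraries. *Pdgfrb* ranged from 0.0187 to 0.0367 at day 2 and from 0.0915 to 0.338 at day 14, also without overlap. The reference itself was lower at day 14 (15.2 to 31.8 CPM, against 61.6 to 209.5 CPM at day 2), and 59.0% of all genes tested had a ratio that was higher in all 9 day 14 libraries, so the higher ratios of *Angpt2* and *Pdgfrb* do not set them apart from other genes. The VEGF receptor *Flt1* overlapped, from 0.0444 to 0.0928 at day 2 and from 0.0132 to 0.08 at day 14, as did *Tie1*, from 0.0129 to 0.0327 and from 0 to 0.0467. *Kdr* ranged from 0.0765 to 0.174 at day 2 and from 0 to 0.153 at day 14. *Tek* ranged from 0.0245 to 0.0469 and from 0.039 to 0.076, the higher range being that of day 14. With *Pecam1* plus *Cdh5* as the reference, *Angpt2* ranged from 0.153 to 2.29 at day 2 and from 1.4 to 15 at day 14 and overlapped, the reference resting on 6 to 50 counts per library at day 14.

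**Figure D3:**
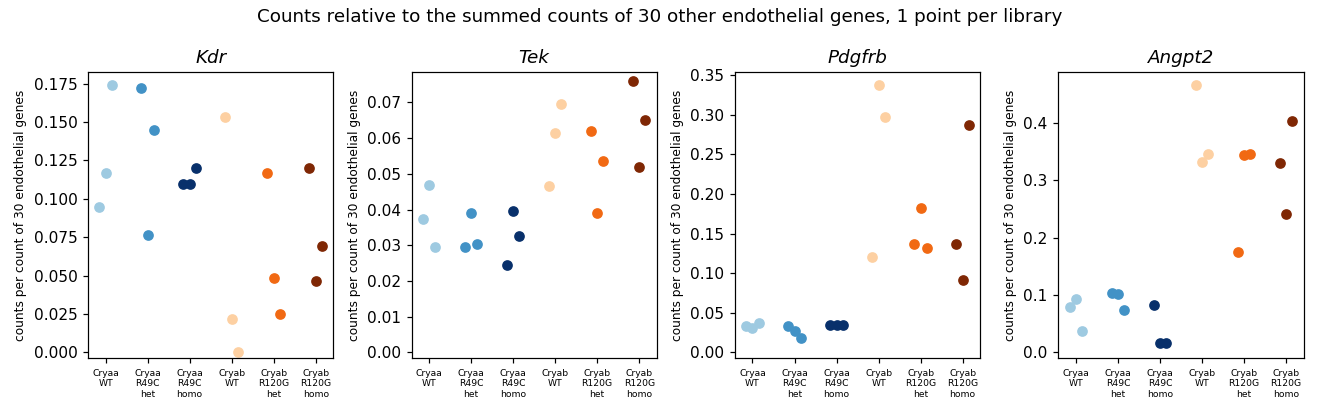
Counts of *Kdr*, *Tek*, *Pdgfrb* and *Angpt2* per count of the 30 other endothelial genes in each library, on linear axes; points are single libraries. All 9 day 14 libraries lie above all 9 day 2 libraries for *Pdgfrb* and *Angpt2*, while *Kdr* and *Tek* overlap between the ages. A ratio higher in every day 14 library was found for 59.0% of all genes tested.

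Other genes of the vessel and its pathways were taken from lists. Of the 30 other endothelial genes, 23 fell between WT lenses of the ages and none rose, with a median log2 fold change of -2.65; *Cd93* (-2.98 ± 0.399, adjusted p = 1.8e-05), *Cldn5*, a tight junction gene (-2.73 ± 0.387, adjusted p = 3.13e-05), and *Eng*, a co-receptor for TGF-β ligands (-3.59 ± 0.523, adjusted p = 4.82e-05), had the smallest adjusted p. All 30 fell in the mean of the genotypes; over all genes 11.5% fell between WT lenses and 26.5% in the mean of the genotypes. Of the 30, 16 passed the count minimum in fewer than 3 day 14 libraries, and 12 of these were among the 23 that fell. They entered the test through day 2, where they are high, so the counts of 23 and 30 and the median are no support for a fall of the list. Of the other VEGF ligands and receptors, 6 of 7 were tested and the co-receptors *Nrp1* (-0.96 ± 0.272, adjusted p = 0.0137) and *Nrp2* (-1.91 ± 0.635, adjusted p = 0.0328) fell. Of the angiopoietin pathway, 5 of 6 were tested and *Ptprb*, the endothelial phosphatase that acts on *Tek*, fell by 2.05 (SE 0.421, adjusted p = 0.00133). Of the PDGF family, 5 of 5 were tested, and *Pdgfb*, the ligand by which endothelium recruits pericytes, fell from 0.665 CPM ± 0.474 (SD, n = 3) to 0.0222 CPM ± 0.0385 (adjusted p = 0.0128). *Pdgfc*, also of that family, fell from 0.447 CPM ± 0.124 to 0 counts in all 3 *Cryab*-WT libraries (adjusted p = 0.0133). *Nrp2*, *Pdgfb* and *Pdgfc* also passed the count minimum in fewer than 3 day 14 libraries, so they entered the test through day 2, where they are high. When single WT libraries were left out, the calls of *Nrp1*, *Nrp2*, *Pdgfb* and *Pdgfc* were lost in at least 1 of the 6 fits, with adjusted p of at most 0.147.

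Of 18 pericyte and smooth muscle genes, 16 were tested. Between WT lenses 8 fell and 2, *Acta2* and *Vtn*, rose, against 11.5% and 11.7% of all genes tested. Of the 8, 5 (among them *Heyl* and *Higd1b*) passed the count minimum in fewer than 3 day 14 libraries and entered the test through day 2, where they are high. *Heyl* (-4.34 ± 0.714, adjusted p = 0.000161), *Rgs5* (-2.41 ± 0.417, adjusted p = 0.000413) and *Higd1b* (-2.28 ± 0.584, adjusted p = 0.007) fell, the latter both known from capillary pericytes. *Acta2*, smooth muscle actin, rose from 10.3 CPM ± 1.87 to 163.3 CPM ± 16.8 (SD, n = 3; log2 fold change 3.99 ± 0.27, adjusted p = 1.26e-09), and it made up most of the day 14 sum of this list. Of 16 macrophage markers, 14 fell and none rose (median -3.61), among them *Lyve1* (-4.00 ± 0.619, adjusted p = 8.71e-05), *Mrc1* (-4.38 ± 0.77, adjusted p = 0.000353) and the complement gene *C1qb* (-3.11 ± 0.59, adjusted p = 0.000721). Their sum ranged from 12.7 to 57.1 CPM per library at day 2 and from 1.47 to 7.6 CPM at day 14, and *Adgre1* had 0 counts in 6 and *Fcgr1* in 8 of the 9 day 14 libraries. Of these markers, 14 passed the count minimum in fewer than 3 day 14 libraries, 13 of them among those that fell, so that they entered the test through day 2, where they are high, and their count is no support for a fall. What the macrophages contributed to the members' values was not tested.

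Of 16 hypoxia pathway genes, 14 were tested, 4 rose and 1, *Epas1*, fell. Between WT ages 11.7% of all genes tested rose and 11.5% fell, the shares to set beside the WT counts in this paragraph. *P4ha1* (1.82 ± 0.242, adjusted p = 1.48e-05) and *P4ha2* (1.42 ± 0.248, adjusted p = 0.000284), which hydroxylate collagen, and *Ndrg1* (1.27 ± 0.217, adjusted p = 0.000246) and the mitophagy gene *Bnip3* (1.04 ± 0.293, adjusted p = 0.0134) rose, while the hypoxia target *Vegfa* gave the values above. Of 10 genes linked to hyaloid regression, 7 were tested and the WNT co-receptor *Lrp5* (-4.33 ± 0.86, adjusted p = 0.000982) and the WNT antagonist *Dkk2* (-2.70 ± 0.853, adjusted p = 0.0253) fell; both entered the test through day 2, with fewer than 3 day 14 libraries past the count minimum. Of 8 genes listed as angiogenesis inhibitors, *Col18a1*, the source of endostatin, fell (-2.74 ± 0.332, adjusted p = 4.7e-06). The less significant *Vash1* and *Thbs2*, which entered through day 2 in the same way, also fell. *Chrdl1* (1.47 ± 0.304, adjusted p = 0.00135) and *Timp3* (1.15 ± 0.36, adjusted p = 0.0254) of this list rose. *Timp3* rested on *Cryab*-WT replicate 1: its highest *Cryab*-WT library had 90.6 CPM and its lowest 22.3 CPM, against 15.8 to 25.3 CPM in *Cryaa*-WT, and without replicate 1 the log2 fold change was 0.22 ± 0.235 (adjusted p = 0.542). *Dkk2* lost its call without *Cryab*-WT replicate 1 (-2.31) or 2 (-2.04) or *Cryaa*-WT replicate 3 (-2.48), and was -6.72 without *Cryab*-WT replicate 3. *Bnip3* lost its call without replicate 3 of *Cryaa*-WT (1.03) or of *Cryab*-WT (0.86). Markers of neighbouring tissue also differed with age. Photoreceptor markers summed to 8.17 to 43.6 CPM per library at day 2 and 22.3 to 1225 CPM at day 14. Of these 8 markers, 5 were higher in WT at day 14, led by *Gnat1*, against 11.7% of all genes tested. Pigment and ciliary epithelium markers fell in 7 of 10 genes (*Pmel* -3.42 ± 0.52, adjusted p = 0.00014), fibroblast markers in 4 of 5 tested genes (*Col1a1* -2.16 ± 0.491, adjusted p = 0.00287) and inner retina markers in 2 of 9 (*Rbpms* and *Pou4f1*). Without *Cryaa*-WT replicate 3, *Col1a1* was at -1.35 (adjusted p = 0.0496). Among those that fell, both inner retina markers, 2 of the 7 pigment markers and 1 of the 4 fibroblast markers entered the test through day 2 in the same way. In the mean of the 3 genotypes these counts were different, with 3 pigment markers higher and 3 lower, 1 fibroblast marker higher and 1 lower, and 1 inner retina marker higher and 3 lower. Over all genes tested 22.3% were higher and 26.5% lower in that mean, so these counts are not read as a change of the lists. No erythroid marker of 5 tested passed in WT. The sum of the erythroid list ranged from 15.6 to 145.7 CPM in *Cryab*-WT and from 36.8 to 57.8 CPM in *Cryaa*-WT. Over all genotypes this sum ranged from 15.6 to 450.9 CPM at day 14 and from 36.8 to 149.7 CPM at day 2. Lens fibre markers rose in 4 of 7 tested genes (*Crygs* 3.92 ± 0.327, adjusted p = 2.99e-08), against 11.7% of all genes tested. Of 6 lens epithelium genes *Npnt* rose and *Gja1* and *Pax6* fell. What these neighbouring tissues contributed to the members' values was not tested.

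**Figure D4:**
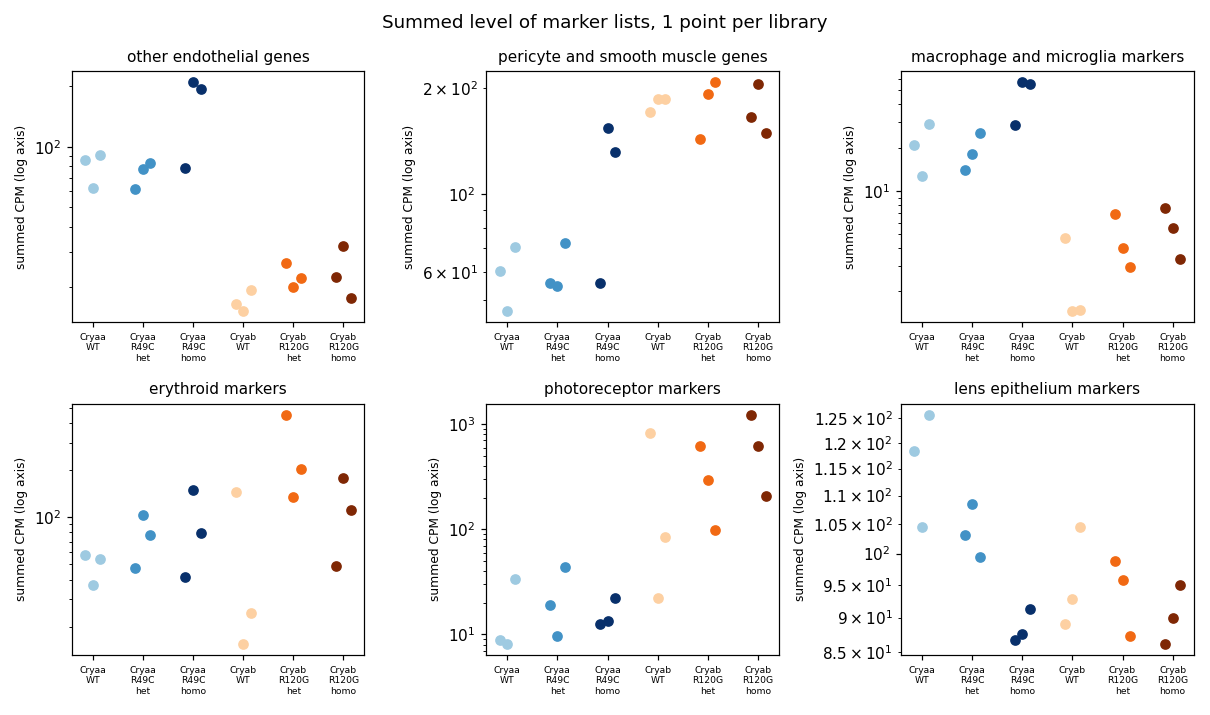
Summed CPM of 6 marker lists in each library on a log axis; points are single libraries. Endothelial and macrophage sums are lower in all 9 day 14 libraries, the pericyte and smooth muscle sum is higher in WT lenses at day 14, where *Acta2* dominates it, and photoreceptor sums spread from 22.3 to 1225 CPM at day 14.

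The second comparison asked whether the αA-crystallin mutation changed the members at day 2. In heterozygous lenses no member passed, as for nearly all genes: 0.00717% of genes tested were called, and no member had an unadjusted p under 0.05 in edgeR's quasi-likelihood test. DESeq2 and the likelihood-ratio test also called 0 members. *Cdh5* measured 1.5, 1.83 and 1.89 CPM in *Cryaa*-R49C-het against 2.98, 2.97 and 3.15 CPM in WT, a log2 fold change of -0.80 ± 0.494 (SE; adjusted p = 0.836). *Flt1* measured 3.65, 3.44 and 4.14 CPM against 6.56, 5.80 and 7.07 CPM in WT (-0.79 ± 0.383, adjusted p = 0.836). *Vegfa* measured 3.19, 2.46 and 2.22 CPM against 5.96, 5.43 and 3.50 CPM in WT (-0.92 ± 0.444, adjusted p = 0.836). In these 3 genes every heterozygous library lay below every WT library, which was so for 12.3% of all genes tested, and none of the differences held against the spread in the test. The other 6 members overlapped, with log2 fold changes from -0.55 for *Pecam1* to 0.35 for *Angpt2*.

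In *Cryaa*-R49C-homo lenses 2 members rose, *Cdh5* and *Tie1*, and none fell, against 4.87% of all genes tested that rose. *Tie1* measured 1.43, 5.21 and 6.31 CPM against 1.36, 0.81 and 1.37 CPM in WT, above WT in every library, as were 11.9% of all genes tested, with a log2 fold change of 1.86 ± 0.502 (SE; adjusted p = 0.02). *Cdh5* measured 1.87, 16.5 and 13.1 CPM against 2.98, 2.97 and 3.15 CPM in WT, with a log2 fold change of 1.78 ± 0.486 (SE; adjusted p = 0.0247). Replicate 1 lay below every WT library for *Cdh5* and replicates 2 and 3 lay far above, so the groups overlapped. Both calls were lost when any of the other 5 libraries was left out (*Cryaa*-WT replicates 1, 2 or 3, or *Cryaa*-R49C-homo replicates 2 or 3), with log2 fold changes from 1.29 to 1.80 for *Cdh5* and from 1.49 to 1.98 for *Tie1*. Without *Cryaa*-R49C-homo replicate 1, 5 members passed, with 2.28 for *Cdh5*, 2.28 for *Tie1*, 1.38 for *Pdgfrb*, 1.36 for *Flt1* and 1.31 for *Tek*. Calls rose over all genes in that fit as well, with 9.2% of genes tested higher. With only the 6 libraries compared in the fit no member passed (adjusted p = 0.115 for *Cdh5* and 0.0581 for *Tie1*). Over all alternatives the adjusted p of *Tie1* reached at most 0.111 and that of *Cdh5* at most 0.134.

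The split between the homozygous libraries ran through the set. *Kdr* measured 8.63, 23.0 and 23.1 CPM in replicates 1 to 3, *Flt1* 5.17, 16.9 and 16.4 CPM, *Tek* 1.91, 8.29 and 6.27 CPM and *Pecam1* 1.85, 6.06 and 5.85 CPM. In each, replicate 1 lay inside or below the WT range and the other replicates lay above it. *Pdgfrb* with 2.73, 7.38 and 6.80 CPM and *Vegfa* with 4.84, 11.6 and 11.8 CPM were split in the same way. *Angpt2* was split in the opposite way, with 6.54, 3.46 and 3.12 CPM. None of these 7 passed: the log2 fold changes were 1.05 ± 0.358 for *Pdgfrb* (adjusted p = 0.067), 0.98 ± 0.378 for *Flt1* (0.109), 0.90 ± 0.372 for *Tek* (0.135), 0.92 ± 0.434 for *Vegfa* (0.199), 1.03 ± 0.651 for *Pecam1* (adjusted p = 0.37), 0.81 ± 0.68 for *Kdr* (0.526) and -0.28 ± 0.288 for *Angpt2* (0.613). Of the 9 members, 6 had an unadjusted p under 0.05, against 24.3% of all genes tested.

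The same replicates stood apart in other lists. The 30 endothelial genes summed to 78.3, 209.5 and 193.0 CPM in *Cryaa*-R49C-homo replicates 1 to 3, against 62.6 to 90.7 CPM in WT. Of the 30, 3 rose: *Icam2* (1.73 ± 0.465, adjusted p = 0.0197), *Rasip1* (1.32 ± 0.351, adjusted p = 0.0183) and *Cd93* (1.19 ± 0.332, adjusted p = 0.0244). Over all genes tested 4.87% rose, the share to set beside each count of genes that rose here. *Nrp1*, a VEGF co-receptor, rose by 1.06 ± 0.258 (SE; adjusted p = 0.00987). Of the pericyte genes, *Rgs5* (1.48 ± 0.384, adjusted p = 0.0183) and *Higd1b* (1.71 ± 0.426, adjusted p = 0.0119) rose. Macrophage markers summed to 28.7, 57.1 and 55.3 CPM against 12.7 to 29.3 CPM in WT, with *C1qa* (1.53 ± 0.418, adjusted p = 0.0214) and *Aif1* (1.49 ± 0.474, adjusted p = 0.0479) higher. Erythroid markers summed to 41.5, 149.7 and 79.5 CPM against 36.8 to 57.8 CPM in WT. Of the hypoxia list, *Pdk1* (0.91 ± 0.204, adjusted p = 0.00574) and *Bnip3* (0.92 ± 0.29, adjusted p = 0.0474) rose and *Ndrg1* fell by 0.67 (SE 0.215, adjusted p = 0.0494). Lens fibre markers fell in 4 of 7 genes, among them *Bfsp1* (-2.23 ± 0.345, adjusted p = 0.000158), against 4.92% of all genes tested that fell. *Gja1* of the lens epithelium fell by 2.00 (SE 0.281, adjusted p = 4.77e-05). Pigment epithelium markers fell in 4 of 10 genes, again against 4.92% of all genes. *Mitf* had the smallest adjusted p (-0.99 ± 0.222, adjusted p = 0.00575), and *Pmel* fell further (-2.02 ± 0.445, adjusted p = 0.00692). The fibroblast gene *Col1a2* fell by 1.03 (SE 0.26, adjusted p = 0.0129). Left out one at a time, *Cryaa*-R49C-homo replicate 2 and *Cryaa*-WT replicate 2 each ended the calls of all 8 vessel, pericyte and macrophage genes named here, with log2 fold changes of 0.71 to 1.53 and of 1.005 to 1.60. *Pdk1*, *Bfsp1*, *Gja1*, *Mitf* and *Pmel* passed in all 6 fits that left out a library. *Ndrg1*, *Col1a2* and *Bnip3* did not, *Bnip3* being at 0.35 (adjusted p = 0.275) without *Cryaa*-R49C-homo replicate 1. The share of reads on *Gm42418*, a locus that overlaps ribosomal RNA sequence, was 2.53%, 24.5% and 42.6% in replicates 1 to 3 and 20.0% to 30.1% in WT. The part of these differences between libraries in the members' values was not tested.

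Relative to the 30 endothelial genes the split was narrower for 8 members and wider for *Angpt2*. *Pdgfrb* ranged from 0.0349 to 0.0352 in *Cryaa*-R49C-homo and from 0.0307 to 0.0367 in *Cryaa*-WT, a narrow range inside that of WT. *Kdr* ranged from 0.11 to 0.12 against 0.0948 to 0.174, and *Vegfa* from 0.0553 to 0.0618 against 0.0386 to 0.0868. *Tie1*, with 0.0183 to 0.0327 against 0.0129 to 0.016, was higher in every homozygous library, which was so for 0.976% of all genes tested. The reference itself was higher in homozygous replicates 2 and 3 (209.5 and 193.0 CPM, against 62.6 to 90.7 CPM in WT). A gene that did not change therefore has a lower ratio there, so this share does not measure how unusual *Tie1* is. *Cdh5* overlapped, with 0.0239 to 0.0785 against 0.0348 to 0.0475, and *Angpt2* measured 0.0835, 0.0165 and 0.0161 in homozygous replicates 1 to 3 against 0.0371 to 0.0939 in WT.

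The third comparison concerned the αB-crystallin mutation at day 14. No member passed in *Cryab*-R120G-het (0.00717% of genes called) or in *Cryab*-R120G-homo (0.0502% of genes called), with 1 and 0 members at an unadjusted p under 0.05, against 3.82% and 6.11% of all genes. DESeq2 called 0 in both, and the likelihood-ratio test 0 and 1 (*Kdr*, with 1.84% of all genes called). *Kdr* measured 3.06, 0.978 and 0.56 CPM in *Cryab*-R120G-het and 2.68, 1.49 and 1.22 CPM in *Cryab*-R120G-homo, against 2.53, 0.333 and 0 CPM in WT. *Tek* measured 1.62, 0.782 and 1.19 CPM and 1.70, 1.65 and 1.15 CPM in these genotypes, against 0.771 to 1.33 CPM in WT. *Tie1* was near the limit of detection, with 2 or 3 counts per library in *Cryab*-R120G-het and 6 to 11 in *Cryab*-R120G-homo. *Cdh5* measured 0.631, 0.522 and 0.49 CPM in *Cryab*-R120G-het, each above the highest WT library of 0.44 CPM, as were 4.62% of all genes tested, but resting on 7 or 8 counts (log2 fold change 0.86 ± 0.848, SE; adjusted p = 1). The SEs of the log2 fold changes ran from 0.30 to 1.0 over the members in *Cryab*-R120G-het.

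The remaining members likewise did not pass. *Angpt2* measured 4.59, 6.91 and 7.70 CPM in *Cryab*-R120G-het and 7.40, 7.70 and 7.11 CPM in *Cryab*-R120G-homo, with log2 fold changes of 0.00 ± 0.301 and 0.20 ± 0.297 (SE). *Pdgfrb* measured 3.60, 3.65 and 2.94 CPM and 3.08, 2.91 and 5.05 CPM, with -0.36 ± 0.378 and -0.25 ± 0.374. *Vegfa* measured 3.42, 2.93 and 1.12 CPM and 1.77, 1.49 and 4.82 CPM, with -0.70 ± 0.49 and -0.60 ± 0.483. *Pecam1* measured 0.631, 0.326 and 0.28 CPM and 0.917, 0.935 and 0.612 CPM, and its log2 fold changes of -2.14 ± 0.898 and -1.10 ± 0.797 turned to 0.05 and 1.10 without *Cryab*-WT replicate 1. Among the lists, no vessel, pericyte or macrophage gene passed in either genotype.

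The difference between the homozygous effects of the lines was also tested, and no member passed, against 2.91% of all genes called. *Pecam1* differed by 2.12 ± 1.029 (SE; adjusted p = 0.343) and *Cdh5* by 1.37 ± 1.035 (adjusted p = 0.581), both larger in the *Cryaa* line. Without *Cryab*-WT replicate 1 the difference for *Pecam1* was -0.08. There were 2 members, *Pdgfrb* (1.30 ± 0.518) and *Vegfa* (1.52 ± 0.65), with an unadjusted p under 0.05, against 15.4% of all genes tested. DESeq2 called 0 members, the likelihood-ratio test 2 (10.4% of all genes called), and the quasi-likelihood test 2 without *Cryaa*-R49C-homo replicate 1 (*Cdh5* 1.87, adjusted p = 0.0392, and *Pdgfrb* 1.64, adjusted p = 0.0147; 12.5% of all genes called). That *Cdh5* and *Tie1* passed in *Cryaa*-R49C-homo and not in *Cryab*-R120G-homo is therefore not shown to be a difference between the lines.

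Across the 18 libraries, after the mean of each age was taken off, the mean standardized log2 level of *Pecam1*, *Cdh5*, *Kdr*, *Tek* and *Tie1* was compared with every gene tested, as a description over libraries that share depth and scaling. The closest genes were *Rbm39* (Pearson r = 0.92), *Wdr60* (0.90), *Sox7* (0.90), *Ptprb* (0.90), *Cep290* (0.89), *Relb* (0.89), *Trim17* (0.88) and *Lmo2* (0.87). Differences between genotypes were not taken off. All members in this mean were high in *Cryaa*-R49C-homo replicates 2 and 3, and how far these libraries set r was not tested. *Sox7*, *Ptprb* and *Lmo2* are known from endothelial or blood cells, whereas *Rbm39*, a splicing factor, and *Cep290*, a cilium gene, are widely expressed. *Ptprb* averaged 5.96 CPM ± 0.803 in *Cryaa*-WT, 4.20 ± 0.746 in *Cryaa*-R49C-het and 10.8 ± 6.51 in *Cryaa*-R49C-homo (SD, n = 3), and 1.46 to 2.04 CPM on average in the day 14 groups. *Rbm39* averaged 73.3 CPM ± 6.45 in *Cryaa*-WT and 89.3 CPM ± 21.3 in *Cryaa*-R49C-homo. Of the members outside this mean, *Flt1* had an r of 0.83, *Vegfa* of 0.60, *Pdgfrb* of 0.46 and *Angpt2* of -0.53.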

How the data were processed

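RNA from pooled whole lenses was made into poly-A libraries (Clontech kit) and sequenced on an Illumina HiSeq. The authors aligned reads with STAR 2.0.4b to GRCm38 and deposited counts of uniquely aligned reads per gene from featureCounts 1.4.5; whether strand was used is not given in the sources used here, so reads of overlapping antisense genes cannot be told apart. RPKM values, deposited beside the counts, served only to recover gene lengths; deposited CPM and moderated log2 CPM were not used. Groups came from sample titles, since the genotype field of the 6 *Cryab*-R120G-het and *Cryab*-R120G-homo libraries names the other line.

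The members and gene lists were chosen with earlier results of these data known. Of 41422 lines, 40800 genes remained after 1 line per identifier was kept, and 13938 passed filterByExpr (count minimum 10). The main test was edgeR 4.0.16 (R 4.3.3), quasi-likelihood, TMM, robust, 1 model of 6 groups. A check on simulated data gave all genes the same spread and scaled libraries by size alone. It therefore does not cover the scaling factors or the split between replicates seen here. SE is the log2 fold change divided by the root of F. Beside members, genes were named by rule: per list, the 3 smallest adjusted p between WT ages, the 2 smallest against WT, the most abundant gene of marker lists, and the 8 genes most like the endothelial members. *Epas1*, *Vtn*, *Vash1* and *Thbs2* were named after their values were seen, as members of small counts. Replicate numbers were checked as pairs: same-numbered libraries of *Cryab*-WT and *Cryab*-R120G-homo correlated at 0.277, 0.176 and 0.156 after group means were removed, and the pairs of other contrasts were not all above 0.1. Alternatives were library size, DESeq2 1.42.0, TMM without crystallins and *Gm42418*, no filter, a likelihood-ratio test, only the groups compared, a replicate block and leaving out each library. Floors (3 counts) cover counting error only, whereas the SE includes the spread between libraries.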

Additional observations from a re-analysis of the deposited data

Results flagged for a closer look

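*Cdh5* stood out because its heterozygous libraries moved in opposite directions in the lines. All 3 *Cryaa*-R49C-het libraries lay below all 3 *Cryaa*-WT libraries (log2 fold change -0.799), as for 12.3% of all genes tested, and all 3 *Cryab*-R120G-het libraries lay above all 3 *Cryab*-WT libraries (0.863), as for 4.62% of all genes, the latter on 3 to 8 counts per library. The difference was not tested in the planned comparisons; in a contrast added after the values were seen it was -1.66 ± 0.98 (SE, log2 scale; edgeR adjusted p = 1, unadjusted p = 0.106).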

How the results depend on the processing

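Of 967 values recomputed under an alternative, 872 kept their direction and side of the threshold, 39 changed sign, 29 gained a call and 27 lost one. Library size in place of TMM moved the median of all genes to -1.61 between WT ages and to 0.41 in *Cryaa*-R49C-homo, where 1884 genes were then higher and 254 lower against 679 and 686. Under it 9 members passed between WT ages, where 82.0% of all genes were called lower, and 6 in *Cryaa*-R49C-homo, where 13.5% were called higher, and values changed sign for *Pdgfrb* (-0.93) and *Angpt2* (-1.21) between WT ages, for *Pdgfrb* (-1.27) and *Angpt2* (-1.25) in the mean of genotypes, for *Kdr* (0.033) and *Tie1* (0.12) in *Cryaa*-R49C-het, for *Angpt2* (0.26) in *Cryaa*-R49C-homo, for *Angpt2* (0.20) in *Cryab*-R120G-het and for *Pdgfrb* (0.10) in *Cryab*-R120G-homo; this scaling shifts every gene by the same factor within a library. With no filter 6 members passed in *Cryaa*-R49C-homo (5.64% of all genes called), 1 in *Cryab*-R120G-het (*Pecam1*; 0.527%) and 2 for the difference between the homozygous effects (3.01%), and *Angpt2* in *Cryab*-R120G-het was 0.014; the prior degrees of freedom were then infinite. The likelihood-ratio test gave 6 members in *Cryaa*-R49C-homo (20.7% of all genes called), 1 in *Cryab*-R120G-homo (*Kdr*; 1.84%) and 2 for the difference (10.4%), with *Pecam1* in *Cryab*-R120G-homo at 0.61 and *Angpt2* in *Cryab*-R120G-het at 0.0. With only the groups compared in the fit, 3 members passed between WT ages and 0 in *Cryaa*-R49C-homo (28.7% and 3.7% of all genes called), from fewer samples. The cause of the other changes was not tested.

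Leaving out a single library gave 3 to 7 members between WT ages, 0 to 5 in *Cryaa*-R49C-homo and 0 to 2 for the difference, with 12.4% to 21.8%, 5.03% to 21.5% and 1.68% to 12.5% of all genes called. Signs changed within these ranges: between WT ages, *Pecam1* (-2.53 to 0.24) and *Vegfa* (-0.62 to 0.00, at most 0.004); in *Cryaa*-R49C-het, *Kdr* (-0.33 to 0.31) and *Tie1* (-0.29 to 0.05); in *Cryab*-R120G-het, *Pecam1* (-2.72 to 0.054), *Kdr* (-0.08 to 3.03), *Flt1* (-0.043 to 0.865), *Tek* (-0.063 to 0.445), *Tie1* (-1.51 to 0.28) and *Angpt2* (-0.16 to 0.18); in *Cryab*-R120G-homo, *Pecam1* (-1.67 to 1.10) and *Cdh5* (-0.31 to 0.73); for the difference, *Pecam1* (-0.08 to 2.69), *Kdr* (-2.52 to 0.33), *Flt1* (-0.18 to 0.73) and *Tek* (-0.085 to 0.76). The replicate block gave 5 members between WT ages and 2 in *Cryaa*-R49C-homo, with 25.1% and 10.3% of all genes called. The 2 were *Cdh5* (1.501, adjusted p = 0.0452) and *Tie1* (1.76, adjusted p = 0.0302), and the block changed no call of a member. Of the 46 genes of the lists called between WT ages under the rule for named genes, 16 lost their call in at least 1 fit that left out a library, and 12 of the 18 in *Cryaa*-R49C-homo; these fits were added after the data were seen. Day 14 counts were 0 to 46 for the endothelial members.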
